A study of Mus musculus with 25 samples.

Results

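The comparison described here set the later of the 2 days sampled after white matter stroke against the earlier one in oligodendrocyte precursor cells (OPC) of the mouse brain. Its members are the 7 libraries labelled Day 15 and the 8 labelled Day 5, chosen by those labels alone. They make up 15 of the 25 libraries of the series. The other 10 are controls, which enter no test and are given as a reference level. The labels describe every library as OPC from laser capture microdissection, a method for cutting small areas out of a tissue section under a microscope. Both stroke groups carry the condition white matter stroke, in which blood supply to myelinated tracts is lost. The day stands in the labels under a tag for age and was read as time after the stroke. Strain, sex, age of the animals, how the stroke was made and how the captured areas were picked are not stated in the labels. The labels do not tie a library to an animal, so libraries of 1 group may share one, and every p-value below is too small if they do.

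OPC are the dividing glial cells from which myelinating oligodendrocytes arise, and after damage to white matter they multiply and replace part of the lost myelin. The damaged tract is first filled by phagocytes, both resident microglia and macrophages that arrive with the blood, which take up dead cells and myelin, digest them in lysosomes and export the lipid. Astrocytes react more slowly and form the rim of the scar. A captured area holds whatever lies in it. In such bulk RNA, fewer cells of a type and less RNA per cell cannot be told apart.

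The OPC label was checked against marker lists. The mean log2(RPKM + 1) over 21 OPC markers was 1.13 ± 0.33 in the Day 15 libraries (SD, n = 7) and 1.39 ± 0.44 in the Day 5 libraries (SD, n = 8). RPKM are reads scaled to gene length and library size. This OPC signal lay below the myelin signal and below the microglia signal in 15 of 15 libraries. Olig2, the transcription factor of the whole lineage, reached at most 0.748 RPKM at Day 15 and 1.48 RPKM at Day 5, with 3 of 7 Day 15 libraries below every Day 5 library, and missed the filter on low values. Cldn5, the tight junction protein of vessel walls, was at most 0.111 RPKM at Day 15 and 0.806 RPKM at Day 5. Other endothelial markers were not so low. Of 22, 8 passed the filter, and all 22 summed to a median of 34.6 RPKM at Day 15 and 30.3 RPKM at Day 5. The captured RNA held transcripts of other glia and of phagocytes besides those of OPC at both days.

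Libraries of both days varied widely in content. Between 1749 and 5266 genes reached 1 RPKM at Day 15, and between 2353 and 6592 at Day 5. The share of the table's genes above 0 fell under 50% in Day 15 replicates 2 and 3 and Day 5 replicate 6. Of 5 library properties tested with a two-sided exact permutation test, none passed. The lowest p was 0.0808, for the number of genes above 0, where 0.0001554 is the smallest p the design allows (adjusted p = 0.272 over the 5 tests). That p moved to 0.00991 without Day 5 replicate 6 and to 0.038 without Day 15 replicate 5. It rose to 0.172 without Day 15 replicate 2. Within replicate numbers 7 to 10 it was 0.0286, and within numbers 1 to 6 it was 0.429 (exact permutation tests, unadjusted). Day 15 replicate 5 and Day 5 replicate 4 were the most alike. Across tested genes their log2 values correlated at r = 0.43, while the other 55 pairs of libraries between days ran from 0.16 to 0.36. Genes are not independent replicates, so these r values are a description. Whether replicate 5 carries the label of another day was not tested, and the main differences are given with and without it.

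No gene passed the test between Day 15 and Day 5. Of 4319 tested genes, limma called 0 higher and 0 lower at a Benjamini-Hochberg adjusted p under 0.05, and the lowest adjusted p was 0.375. At an unadjusted p under 0.05 there were 24 genes with a higher mean at Day 15 (0.556% of those tested) and 512 with a lower mean (11.9%). An exact rank-sum test per gene called 0 as well, with 12 higher and 552 lower at an unadjusted p under 0.05. The lean toward lower values was shared by the whole table. The median log2 difference over all tested genes, Day 15 minus Day 5, was -0.44. After upper-quartile scaling, which divides each library by the 75th percentile of its tested genes, the median was -0.14, and after quantile normalization it was 0.00. Upper-quartile scaled values gave 83 higher (1.92%) and 226 lower genes (5.23%) at an unadjusted p under 0.05, again with 0 called and a lowest adjusted p of 0.639. Quantile normalized values gave 155 higher and 132 lower. Most groups of genes below are therefore given on the deposited and on the scaled values, beside these figures for all genes.

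The test's reach was limited by the spread between libraries. The 95% confidence interval of a gene's log2 difference extended a median of 1.21 to either side. The lists of genes named below were chosen with earlier results of these data known, so counts and medians describe them without a test of the list. All differences are on the log2(RPKM + 1) scale, which understates the change of low genes.

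Genes listed as macrophage and leukocyte markers had the lowest median among the gene lists with 3 or more tested members. Several are made by phagocytes in general, so a change in arriving cells and one within resident microglia cannot be told apart. Of the 29 markers in the table, 14 passed the filter, and their median log2 difference was -1.33 as deposited and -1.07 after upper-quartile scaling. Of the 14, 9 had an unadjusted p under 0.05 with a lower mean at Day 15 (64.3%, beside 11.9% of all tested genes). After scaling 6 did so (42.9%, beside 5.23%), while 0 were called on either scale. The red blood cell signal had a lower mean at Day 15 too. The signal of the 9 in the table was 0.042 ± 0.054 at Day 15, 0.232 ± 0.148 at Day 5 and 0.191 ± 0.150 in controls (SD). The Day 5 mean thus lay near the control mean, and the Day 15 mean below it. The summed level of the 9 ran from 0 to 1.12 RPKM at Day 15 and from 0.554 to 6.29 RPKM at Day 5. Of the 9, 2 were at 0 in every library of either day. The highest Day 15 signal was again that of replicate 5, 0.151. The part of blood in the macrophage values was not tested. The macrophage list holds both surface receptors and the secreted proteins of activated phagocytes.

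Cd68, the lysosomal membrane protein used as the standard mark of phagocytes, ran from 1.16 to 33.8 RPKM at Day 15 (median 3.55) and from 16.8 to 83.3 RPKM at Day 5 (median 29.2), against a control median of 2.41. All Day 15 libraries except replicate 5 lay below every Day 5 library. The log2 difference was -2.60 (SE 0.76, limma adjusted p = 0.375), and -2.11 after upper-quartile scaling. Lgals3, the galectin that phagocytes make on taking up debris, had a median of 0.233 RPKM at Day 15 (0.0704 to 7.51) and 9.96 RPKM at Day 5 (0.997 to 23.0). It lay below every Day 5 library in 5 of 7 Day 15 libraries, and its log2 difference of -2.45 (SE 0.68, limma adjusted p = 0.375) had the smallest unadjusted p of the genes named here on the deposited values, 0.000847. Ms4a7, a membrane protein of macrophages, had a median of 0.315 RPKM at Day 15 (0.119 to 12.8) and 7.74 RPKM at Day 5 (2.01 to 35.5). Again all Day 15 libraries but replicate 5 lay below the Day 5 range, and the log2 difference was -2.41 (SE 0.70). Msr1, the scavenger receptor for oxidised lipoprotein, showed that same order of libraries with medians of 0.233 and 8.12 RPKM and a difference of -2.22.

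The pattern of at least 6 of 7 Day 15 libraries below every Day 5 library was met by 74 of the 4319 tested genes (1.71%), and by 6 of the 14 macrophage markers. After upper-quartile scaling it was met by 35 genes (0.81%) and 4 of the markers. Ly6c2, a surface protein of inflammatory monocytes, was among the 6, with medians of 0.0370 RPKM at Day 15 and 1.95 RPKM at Day 5. It was named after its values were seen, as were Mpeg1 and Ptprc below. Other members overlapped more. Lyz2, the lysozyme of myeloid cells, ran from 6.25 to 311 RPKM at Day 15 (median 32.2) and from 19.3 to 2210 RPKM at Day 5 (median 174), and 6 of 7 Day 15 libraries lay inside the Day 5 range. Its log2 difference was -2.09 (SE 1.00), and -1.52 after scaling. Mpeg1, the pore-forming protein of macrophages, differed by -1.97. Ptprc, the phosphatase CD45 carried by every white blood cell and by microglia, differed the other way, by 1.06 as deposited and 1.59 after scaling, with 3 of 7 Day 15 libraries above every Day 5 library.

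Spp1 and Gpnmb, made by phagocytes that have taken up lipid, also had lower means at Day 15. Spp1, or osteopontin, ran from 1.30 to 153 RPKM at Day 15 (median 4.47) and from 3.46 to 1818 RPKM at Day 5 (median 61.8). The ranges overlapped broadly, and the log2 difference was -3.18 (SE 1.01, limma adjusted p = 0.375). Gpnmb, a glycoprotein of late phagosomes, ran from 4.03 to 231 RPKM at Day 15 and from 29.9 to 544 RPKM at Day 5, a difference of -2.17 (SE 0.91). For the enzymes and transporters of lipid efflux and lipid droplets, 13 of 22 passed the filter, with a median of -0.77 as deposited and -0.45 after scaling. The share of all tested genes lower at an unadjusted p under 0.05 was 11.9%, and 5.23% after scaling. Of the 13, 2 (15.4%) had such a p on either scale, both lower. They were Soat1, which esterifies cholesterol for storage (-1.55), and Cd36, the fatty acid and scavenger receptor (-1.39).

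Genes of the lysosome and of phagocytosis stood next to the macrophage list, with which they share Cd68 and Msr1. Of 46 genes, 40 passed the filter. Their median was -1.16 as deposited and -0.63 after scaling, with 33 of 40 below 0. At an unadjusted p under 0.05, 13 were lower and 0 higher (32.5% lower, beside 11.9% of all tested genes). After scaling 10 were lower and 1 higher (25% lower, beside 5.23%). Lipa, the acid lipase that frees cholesterol from ingested lipid, had a median of 0.577 RPKM at Day 15 (0.184 to 31.2) and 23.6 RPKM at Day 5 (3.20 to 182). All Day 15 libraries but replicate 5 lay below every Day 5 library, and the log2 difference was -2.89 (SE 0.83, limma adjusted p = 0.375). Lgmn, the asparagine-specific protease of the lysosome, ran from 0.317 to 11.9 RPKM at Day 15 and from 5.90 to 409 RPKM at Day 5, with 5 of 7 Day 15 libraries below the Day 5 range and a difference of -2.61. Gla, the galactosidase that degrades glycolipid, differed by -2.53, and Atp6ap1, an accessory subunit of the proton pump, by -2.60; both were named after their values were seen. The member on the other side was Cst3, cystatin C, the secreted inhibitor of cathepsins. Its log2 difference was 1.48 as deposited (p = 0.0934, limma, unadjusted) and 2.00 after scaling (p = 0.0102, limma, unadjusted), and it rested on Day 15 replicates 3 and 5, which held 123 and 309 RPKM against a Day 15 median of 8.56. It too was named after its values were seen.

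Genes on the microglia list had a median difference above that of all tested genes on both scales. Of 23 markers, 21 passed the filter, and their median log2 difference was 0.09 as deposited and 0.41 after upper-quartile scaling, with 12 of 21 above 0 as deposited. Leaving out 1 library moved the deposited median between -0.15 (without Day 15 replicate 3) and 0.34 (without Day 15 replicate 8), and the scaled one between 0.27 and 0.73. At an unadjusted p under 0.05, 1 was lower and 0 higher as deposited. After scaling 0 were lower and 7 higher, namely P2ry12, Cx3cr1, Csf1r, Siglech, Sall1, Olfml3 and C1qb, 33.3% of the list beside 1.92% of all tested genes. Those of the 7 other than Siglech and Sall1 were named after their values were seen.

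Siglech, the sialic acid receptor found on microglia and not on most macrophages, had a median of 2.36 RPKM at Day 15 (0.0772 to 13.5) and 0.669 RPKM at Day 5 (0.00276 to 3.65), against 0.0419 RPKM in controls. Day 15 exceeded every Day 5 library in 3 of 7 libraries, and the log2 difference was 1.01 (SE 0.56, limma adjusted p = 0.437). Sall1, the transcription factor that keeps microglial identity, had a median of 2.40 RPKM at Day 15 (0.162 to 89.0) and 0.780 RPKM at Day 5 (0 to 4.09). Its difference of 1.57 rested on Day 15 replicates 2 and 3, at 53.2 and 89.0 RPKM. Both are among the libraries with under 50% of genes above 0, and without those 3 libraries the difference was 0.03. Csf1r, the receptor for the growth factors on which microglia depend, had medians of 20.4 and 8.37 RPKM and overlapping ranges, with a difference of 0.92 (1.45 after scaling). P2ry12, the purine receptor of resting microglia, differed by 0.75 (1.00 after scaling), and Cx3cr1, the fractalkine receptor, by 0.84 (1.26 after scaling). Cd53, a tetraspanin of all leukocytes, was the 1 member lower at an unadjusted p under 0.05, by -1.48 as deposited and -1.02 after scaling. Aif1, the calcium-binding protein Iba1, stayed at or below 2.87 RPKM at both days, with a difference of -0.46 that was 0.06 after quantile normalization.

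**Figure D1:**
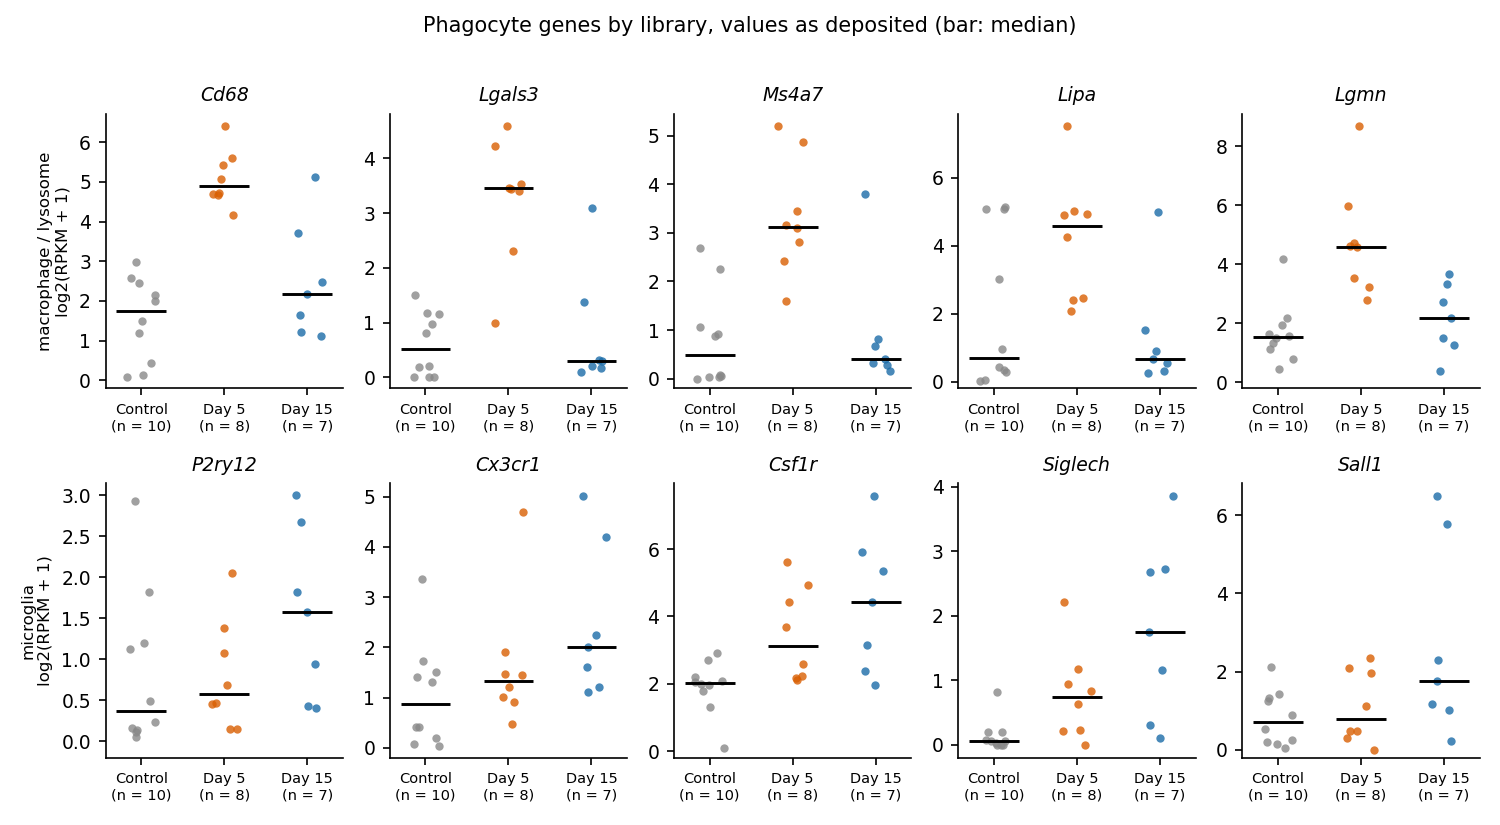
Expression of 5 macrophage or lysosome genes (upper row) and 5 microglia genes (lower row) in each library, as log2(RPKM + 1) of the deposited values; each point is a library, the bar is the median of the group, and each panel has its own scale. In the upper row the highest Day 15 point for Cd68, Lgals3, Ms4a7 and Lipa is replicate 5, which stands within the Day 5 range (for Lgals3 with 1 more Day 15 point), and in the lower row the days overlap throughout.

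The balance between the lists was read within each library. Since cell types share some of the listed genes, it does not separate arriving from resident phagocytes. A factor common to all values of a library does not cancel in it, since log2(RPKM + 1) compresses low values. The balance is therefore given on both scales, and it depended on the scale. The macrophage and leukocyte signal, the mean log2(RPKM + 1) over its 29 genes, was 0.98 ± 0.48 for Day 15 (SD, n = 7), 1.72 ± 0.34 for Day 5 (SD, n = 8) and 0.57 ± 0.29 for controls (SD, n = 10). The microglia signal was 2.52 ± 0.74 at Day 15, 2.39 ± 0.71 at Day 5 and 1.08 ± 0.31 in controls. At Day 15 the mean macrophage signal thus lay between those of control and Day 5, while the microglia means of the 2 stroke days differed by less than their SDs. After upper-quartile scaling the microglia signal was 2.72 ± 0.40 at Day 15 and 2.18 ± 0.35 at Day 5, a difference larger than either SD. The macrophage signal minus the microglia signal had a median of -1.28 at Day 15 (-2.56 to -0.54) and -0.48 at Day 5 (-1.35 to -0.26). This put 3 of 7 Day 15 libraries below every Day 5 library. After upper-quartile scaling the medians were -1.68 (-2.38 to -0.49) and -0.55 (-1.09 to -0.21), and 6 of 7 Day 15 libraries lay below every Day 5 library, the exception being replicate 5. No p is given for these scores, since the lists were chosen with results of these data known.

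**Figure D2:**
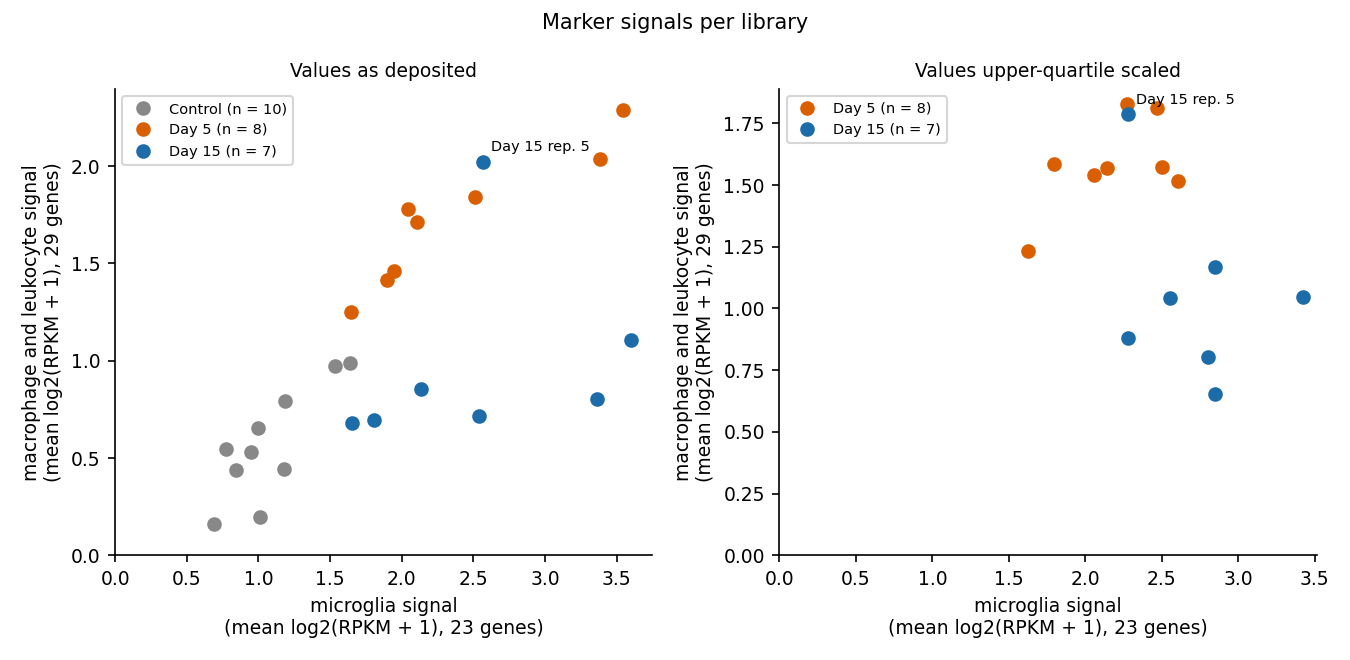
Macrophage and leukocyte signal against microglia signal in each library, each the mean log2(RPKM + 1) over the genes of its list, as deposited (left) and after upper-quartile scaling (right, stroke libraries only). Day 15 libraries other than replicate 5 lie under the Day 5 libraries at like microglia signal, and replicate 5, at a macrophage signal of 2.02 as deposited, lies among the Day 5 libraries.

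The size of these differences depended on Day 15 replicate 5. It held the highest Day 15 value for 9 of the 14 tested macrophage markers and 24 of the 40 lysosomal genes. Without it, the macrophage median was -1.74 with 12 of 14 lower at an unadjusted p under 0.05, beside 16.7% of all tested genes (721 against 512 with it). The lysosomal median was -1.44 with 17 of 40 lower. The microglia median was 0.17 without it, with 1 lower and 2 higher, beside 16.7% lower and 0.556% higher of all tested genes. Still 0 genes were called, and the lowest adjusted p (limma) was 0.214. The differences of Cd68, Ms4a7 and Lipa became -3.04, -2.88 and -3.50. Without the 3 libraries with most genes at 0, the macrophage median was -1.13 with 8 of 14 lower beside 13.5% of all tested genes, and the microglia median was -0.24 as deposited and 0.37 after scaling, with 1 marker higher on the scaled values. The count of higher microglia markers after scaling thus depended on these 3 libraries. Within replicate numbers 1 to 6 and within numbers 7 to 10, where libraries share a range of numbers, the macrophage median was -1.44 and -1.81, and the microglia median 0.61 and -0.15.

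Among chemokine and cytokine genes, Il17ra and Il7r had lower means at Day 15 and Csf1 a higher one. Of 47 chemokine and cytokine genes, 21 passed the filter, with a median of -0.68 (-0.52 after scaling) and 14 of 21 below 0. At an unadjusted p under 0.05, 7 were lower and 1 higher (33.3% lower, beside 11.9% of all tested genes). After scaling 4 were lower and 2 higher (19.0% and 9.52%, beside 5.23% and 1.92%). Il17ra, the receptor subunit for interleukin 17, had a median of 0.448 RPKM at Day 15 (0.0781 to 1.43) and 4.79 RPKM at Day 5 (0.947 to 58.7), with 5 of 7 Day 15 libraries below the Day 5 range and a log2 difference of -2.30 (SE 0.68). Il7r, the interleukin 7 receptor, had medians of 0.329 and 5.03 RPKM against 0.0774 RPKM in controls, and all Day 15 libraries but replicate 5 lay below every Day 5 library (-1.89, SE 0.60). The member on the other side was Csf1, a growth factor of microglia and macrophages, named after its values were seen. It had medians of 4.24 RPKM at Day 15 (0.816 to 84.9) and 0.880 RPKM at Day 5 (0.144 to 14.9), with 3 of 7 Day 15 libraries above every Day 5 library and a log2 difference of 1.60 (SE 0.77).

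Complement genes had 15 of 24 tested and a median of -0.57 as deposited and 0.00 after scaling. As deposited, 2 were higher and 1 lower at an unadjusted p under 0.05, beside 0.556% higher and 11.9% lower of all tested genes. After scaling 4 were higher (26.7%, beside 1.92%) and 0 lower. C3, the central component that tags material for uptake, had a median of 4.23 RPKM at Day 15 (0.901 to 84.4), 1.08 RPKM at Day 5 (0.154 to 2.14) and 0.165 RPKM in controls. In 5 of 7 Day 15 libraries it lay above every Day 5 library, and the log2 difference was 1.71 (SE 0.68, limma adjusted p = 0.375). Itgax, the CD11c subunit of the complement receptor CR4, ran from 0.107 to 8.45 RPKM at Day 15 (median 2.21) and from 0.00863 to 1.73 RPKM at Day 5 (median 0.512). Here too 5 of 7 Day 15 libraries exceeded every Day 5 library, with a difference of 1.09 (SE 0.48). Without the 3 libraries with most genes at 0 the differences of C3 and Itgax were 0.80 and 0.96 as deposited, and 0 complement genes were higher at an unadjusted p under 0.05 (0.232% of all tested genes were). Microglia and complement lists share the C1q genes.

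Of 40 interferon response genes, 32 passed the filter, with a median of -0.55 (-0.20 after scaling). Of these, 6 were lower and 0 higher at an unadjusted p under 0.05 (18.8% lower, beside 11.9% of all tested genes). After scaling 2 were lower (6.25%, beside 5.23%). Ifitm3, the membrane protein that blocks virus entry, had medians of 1.92 RPKM at Day 15 and 12.7 RPKM at Day 5 (-2.07, SE 0.73). Ifi30, the lysosomal thiol reductase of antigen processing, differed by -1.44 and Ifit1, which binds foreign RNA, by -1.73. In the list for extracellular matrix and scar, 23 of 47 were tested with a median of -0.22 (0.13 after scaling). Besides Spp1, its members with the smallest p were Mmp12, the elastase of macrophages (-1.46), and Adamts4, which cleaves proteoglycans (-1.31).

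Astrocyte genes lay on both sides of 0. Of 22, 17 passed the filter, with a median of -0.06 as deposited and 0.40 after scaling. At an unadjusted p under 0.05, 1 was higher and 1 lower (5.88% lower, beside 11.9% of all tested genes). After scaling 3 were higher and 1 lower (17.6% higher, beside 1.92%). The deposited median was -0.42 without Day 15 replicate 3, 0.29 without Day 5 replicate 3 and -0.59 without the 3 libraries with most genes at 0. Slc1a2, the glutamate transporter GLT-1, had a median of 41.9 RPKM at Day 15 (8.21 to 213) and 10.7 RPKM at Day 5 (5.57 to 39.5). Day 15 values lay above every Day 5 library in 5 of 7 cases, and the log2 difference was 1.66 (SE 0.79), 2.20 after scaling. Aqp4, the water channel of astrocyte endfeet, had medians of 24.8 and 7.58 RPKM against 1.93 RPKM in controls, with 4 of 7 Day 15 libraries above the Day 5 range and a difference of 1.15 (1.65 after scaling). Glul, glutamine synthetase, went the other way, from 0.841 to 15.3 RPKM at Day 15 (median 3.25) and from 8.23 to 785 RPKM at Day 5 (median 12.9), a difference of -1.99 with 5 of 7 Day 15 libraries below the Day 5 range. Gfap, the filament protein of reactive astrocytes, overlapped fully, with medians of 15.1 and 19.6 RPKM and a difference of -0.06 that was 0.52 after scaling. The reactive astrocyte list had a median of -0.41 (-0.08 after scaling), near that of all genes.

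The genes with the smallest p on the higher side included receptors, channels and nuclear proteins. Ntrk2, the receptor TrkB for brain-derived neurotrophic factor, had a median of 28.3 RPKM at Day 15 (3.02 to 107) and 6.82 RPKM at Day 5 (1.51 to 13.8). Above every Day 5 library lay 6 of 7 Day 15 libraries, an order met by 2 of all tested genes (0.0463%), and the log2 difference was 2.03 (SE 0.78, limma adjusted p = 0.375). Kcnj2, an inward rectifier potassium channel that microglia and other cells carry, had medians of 4.05 RPKM at Day 15 (2.38 to 74.3), 1.01 RPKM at Day 5 (0.183 to 4.11) and 0.238 RPKM in controls, with a difference of 1.74 (SE 0.67). The Day 5 range was exceeded by 3 of 7 Day 15 libraries. Cacnb4, a calcium channel subunit, had medians of 2.36 and 0.398 RPKM with 5 of 7 Day 15 libraries above the Day 5 range and replicate 2 at 0 (1.38, SE 0.56).

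Ivns1abp, a kelch protein that binds actin, had a median of 14.7 RPKM at Day 15 (6.67 to 331) and 3.22 RPKM at Day 5 (0.915 to 16.1), a difference of 2.28 (SE 0.79). Cand1, which exchanges the substrate receptors of cullin ubiquitin ligases, had medians of 16.2 and 1.79 RPKM with 4 of 7 Day 15 libraries above every Day 5 library (2.37, SE 0.82). The other members of the 10 on the higher side were Dcaf8 (1.59), Bms1 (1.69), Ctdsp2 (1.88) and Utp14b (1.23). After scaling the 10 also held D14Abb1e (1.85), Srrm2 (2.19) and Sdc3 (2.41). Sdc3 and Srrm2 rested on few libraries. Sdc3, syndecan 3, reached 440 RPKM in Day 15 replicate 2 with a Day 15 median of 3.45, and Srrm2, a splicing scaffold protein, reached 960 RPKM in replicate 3 with a median of 29.1. Cxcl13, the chemokine that draws B cells, missed the filter on low values and was named after its values were seen. It ran from 0.00672 to 5.96 RPKM at Day 15, at most 0.195 RPKM at Day 5 and at most 0.0256 RPKM in controls, with 5 of 7 Day 15 libraries above every Day 5 library. In a fit without the filter its adjusted p (limma) was 0.721.

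Genes of protein synthesis had lower means at Day 15 almost throughout. Of 37 translation initiation and elongation factors, 34 passed the filter and 33 had a difference below 0, against 76.0% of all tested genes below 0. Their median was -0.99 as deposited and -0.69 after scaling. At an unadjusted p under 0.05, 8 were lower and 0 higher (23.5% lower, beside 11.9% of all tested genes). After scaling 5 were lower (14.7%, beside 5.23%). Eif3a, the largest subunit of initiation factor 3, ran from 1.94 to 8.36 RPKM at Day 15 (median 2.61) and from 9.56 to 59.4 RPKM at Day 5 (median 14.4). The groups did not overlap, which held for 13 of all tested genes, all lower at Day 15 (0.301%), and the log2 difference was -2.09 (SE 0.69, limma adjusted p = 0.375). After scaling they overlapped. Eif3i and Eif1a, of the same machinery, differed by -1.54 and -1.80. Of 76 cytosolic ribosomal protein genes, 30 passed the filter and 30 of 30 lay below 0, with a median of -0.77. At an unadjusted p under 0.05, 4 were lower (13.3%, beside 11.9% of all tested genes). After scaling 26 of 30 ribosomal protein genes lay below 0, with a median of -0.37, against 59.0% of all tested genes below 0. Of these genes 2 were then lower at that p (6.67%, beside 5.23%). Rps3a and Rpl14 differed by -1.73 and -0.99. Many ribosomal protein genes have processed pseudogene copies that can share reads, so single members are uncertain. In a fit that also held each library's number of detected genes the medians of translation factors and ribosomal proteins were -0.34 and -0.18. The median of all tested genes in that fit was -0.06. The dependence of both lists on how many genes a library detected was not tested further.

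Cytoskeleton and migration genes had 40 of 46 tested and a median of -0.81 (-0.55 after scaling). At an unadjusted p under 0.05, 10 were lower and 0 higher (25% lower, beside 11.9% of all tested genes). After scaling 6 were lower and 1 higher (15% lower, beside 5.23%). Arpc2, a subunit of the complex that branches actin filaments, ran from 0.121 to 1.77 RPKM at Day 15 (median 1.14) and from 2.74 to 19.9 RPKM at Day 5 (median 7.47). The groups did not overlap, and the log2 difference was -2.19 (SE 0.62, limma adjusted p = 0.375). Capg, which caps actin filaments and is abundant in macrophages, was at most 0.777 RPKM at Day 15 and at least 1.23 RPKM at Day 5 (-1.37, SE 0.46). Actr2, another subunit of the branching complex, differed by -1.99, and by -1.12 without the 3 libraries with most genes at 0. Mtpn, which binds the capping protein, ran from 0.704 to 4.85 RPKM at Day 15 and from 5.95 to 35.6 RPKM at Day 5, again without overlap (-2.25, SE 0.67).

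**Figure D3:**
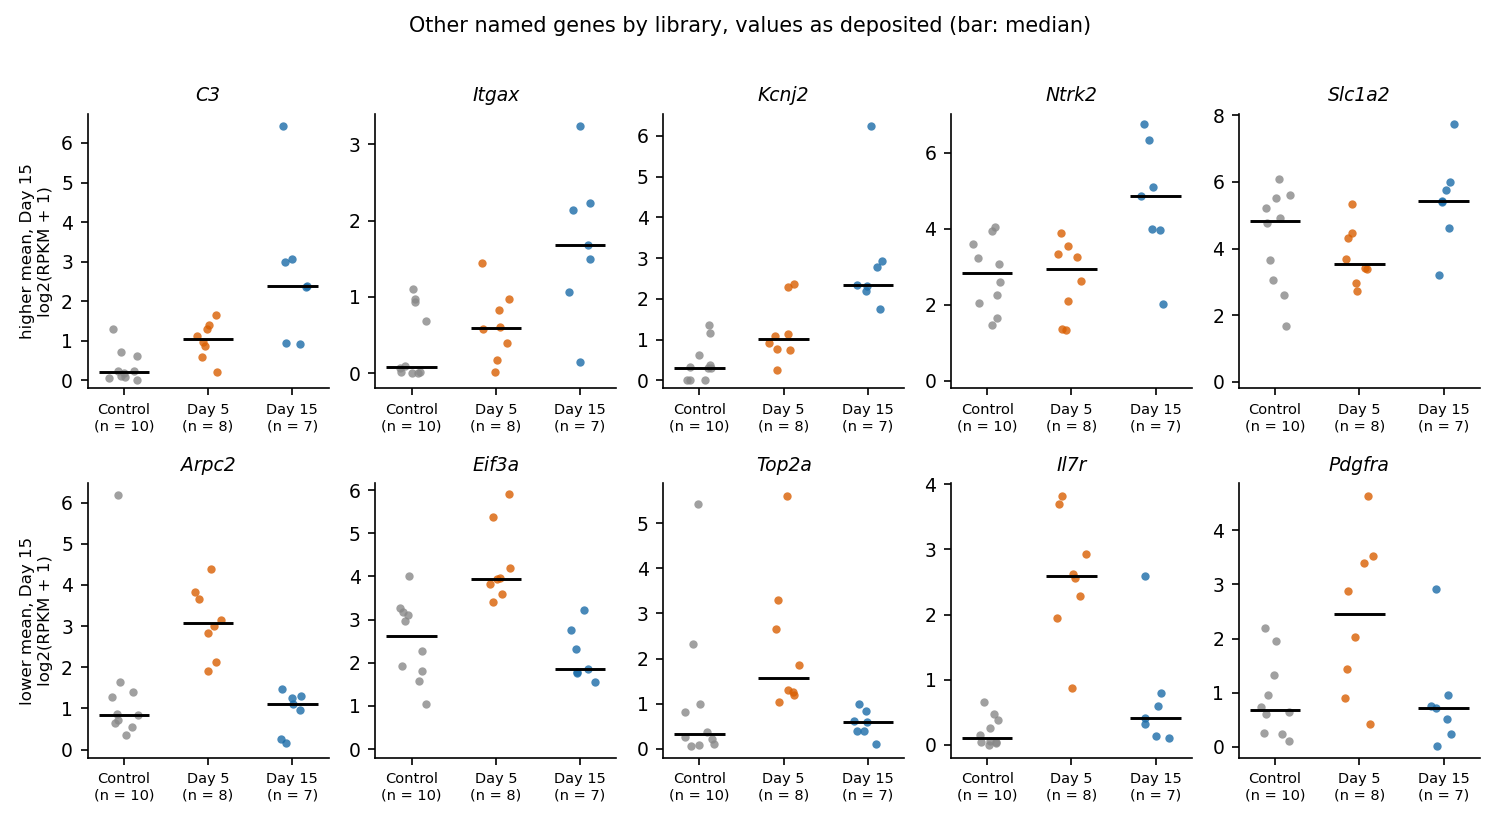
Expression of 5 genes with a higher mean at Day 15 (upper row) and 5 with a lower mean (lower row) in each library, as log2(RPKM + 1) of the deposited values; each point is a library and the bar is the group median. For Arpc2, Eif3a and Top2a the 7 Day 15 and 8 Day 5 points do not overlap, and for Ntrk2 6 of 7 Day 15 points lie above all Day 5 points.

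The remaining genes with the smallest p on the lower side belonged to no single list. Cntn1, a cell adhesion protein of axons and oligodendrocytes, had medians of 0.322 RPKM at Day 15 and 5.07 RPKM at Day 5, and 6 of 7 Day 15 libraries lay below every Day 5 library (-1.93, SE 0.55). Sp3, a transcription factor, had medians of 0.486 and 5.57 RPKM, with 6 of 7 Day 15 libraries below as deposited and 7 of 7 after scaling (-2.44, SE 0.71). Atp1b3, a subunit of the sodium pump, differed by -2.65. Groups without overlap numbered 4 genes after scaling (0.0926%), Sp3 among them, and no gene was without overlap on both scales.

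Oligodendrocyte lineage genes lay close to the level of the whole table. Of 21 OPC markers, 13 passed the filter, with a median of -0.24 as deposited and 0.02 after scaling. Of the 13, 2 were lower and 0 higher at an unadjusted p under 0.05 (15.4% lower, beside 11.9% of all tested genes). Pdgfra, the growth factor receptor that defines OPC, had a median of 0.643 RPKM at Day 15 (0.00943 to 6.52), 4.71 RPKM at Day 5 (0.333 to 23.9) and 0.607 RPKM in controls. The groups overlapped, with Day 15 replicate 5 highest at Day 15, and the log2 difference was -1.53 (SE 0.65, limma adjusted p = 0.375), -1.22 after scaling. Sox6, which holds OPC in the precursor state, had medians of 1.17 and 5.13 RPKM (-1.45, SE 0.65). Cspg4, the proteoglycan NG2, had medians of 0.283 and 0.464 RPKM; its difference of 0.10 came from Day 15 replicate 5 at 25.0 RPKM and was -0.47 without it. Sox10, the transcription factor of the whole lineage, had medians of 2.35 and 1.91 RPKM and a difference of -0.48 that was 0.02 after scaling.

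Of 31 myelin genes, 27 passed the filter, with a median of -0.61 (-0.36 after scaling). At an unadjusted p under 0.05, 5 were lower and 0 higher (18.5% lower, beside 11.9% of all tested genes). After scaling 3 were lower (11.1%, beside 5.23%). Mbp, myelin basic protein, overlapped between days, with medians of 32.5 RPKM at Day 15 (18.6 to 439) and 75.3 RPKM at Day 5 (15.5 to 350). Its difference of -0.20 became 0.36 after scaling. Among the lower members, Trf, the iron carrier transferrin, had medians of 4.13 RPKM at Day 15 and 38.9 RPKM at Day 5, with 4 of 7 Day 15 libraries below the Day 5 range (-2.05, SE 0.83). Ermn, a cytoskeletal protein of mature oligodendrocytes, differed by -2.33 and Qdpr, a pteridine reductase rich in these cells, by -1.55. Among 64 genes of OPC signalling and differentiation control, 34 were tested with a median of -0.43. At an unadjusted p under 0.05, 4 were lower (11.8%, near the 11.9% of all tested genes). The smallest p were those of the Wnt co-receptor Lrp6 (-1.72), the orphan receptor Gpr37 (-0.89) and Notch1 (-1.31).

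Cell cycle genes were mostly under the filter, with 10 of 46 tested and a median of -0.66 (-0.34 after scaling). Top2a, the topoisomerase of dividing cells, ran from 0.0756 to 0.990 RPKM at Day 15 (median 0.514) and from 1.04 to 47.9 RPKM at Day 5 (median 2.04). The groups did not overlap, although the highest Day 15 and lowest Day 5 values nearly touch, and the log2 difference was -1.71 (SE 0.61, limma adjusted p = 0.375). Scaled values overlapped. Neuronal genes were barely captured, with 4 of 22 tested and a median of 0.35, which was 0.039 without Day 15 replicate 6. Snap25, of the synaptic vesicle machinery, had medians of 0.938 and 0.608 RPKM, with 56.0 RPKM in Day 15 replicate 6 (0.80, SE 0.61). Camk2n1, an inhibitor of CaM kinase II, had medians of 0.228 and 0.373 RPKM against 7.79 RPKM in controls, and its difference between days was -0.18, 0.19 after quantile normalization.

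The other lists are given mainly on the deposited values, where 11.9% of all tested genes were lower at an unadjusted p under 0.05. Protein folding and ER stress genes had a median of -0.72 with 4 of 26 lower at an unadjusted p under 0.05, and proteasome subunits -0.67 with 3 of 19. Immediate early genes had -0.47 with 3 of 9, iron and oxidative stress genes -0.45 with 3 of 22, and fatty acid and myelin lipid genes -0.29 with 2 of 19. Respiratory chain genes (-0.51, 18 tested), antigen presentation (-0.33, 14 tested), markers of newly formed oligodendrocytes (-0.24, 9 tested) and of pericytes, smooth muscle and fibroblasts (-0.19, 4 tested) had 1 lower each. Guidance genes (-0.57, 19 tested), hypoxia and glycolysis (-0.43, 15 tested), endothelial markers (-0.34, 8 tested) and cholesterol synthesis (0.22, 4 tested) had 0. In all these lists 0 were higher as deposited. After upper-quartile scaling, 5.23% of all tested genes were lower at that p. Proteasome subunits then had 3 lower (15.8%) and iron and oxidative stress genes 2. Protein folding, immediate early, fatty acid, newly formed oligodendrocyte and pericyte lists had 1 lower each. Respiratory chain, antigen presentation, guidance, hypoxia, endothelial and cholesterol lists had 0 lower. The iron, hypoxia and pericyte lists had 1 higher each. The scaled medians of antigen presentation, endothelial and pericyte lists lay above 0, at 0.03, 0.05 and 0.05. Of the red blood cell genes 1 was tested, lower by -0.95 at an unadjusted p under 0.05 on both scales, and of the ependymal and choroid plexus genes 0.

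**Figure D4:**
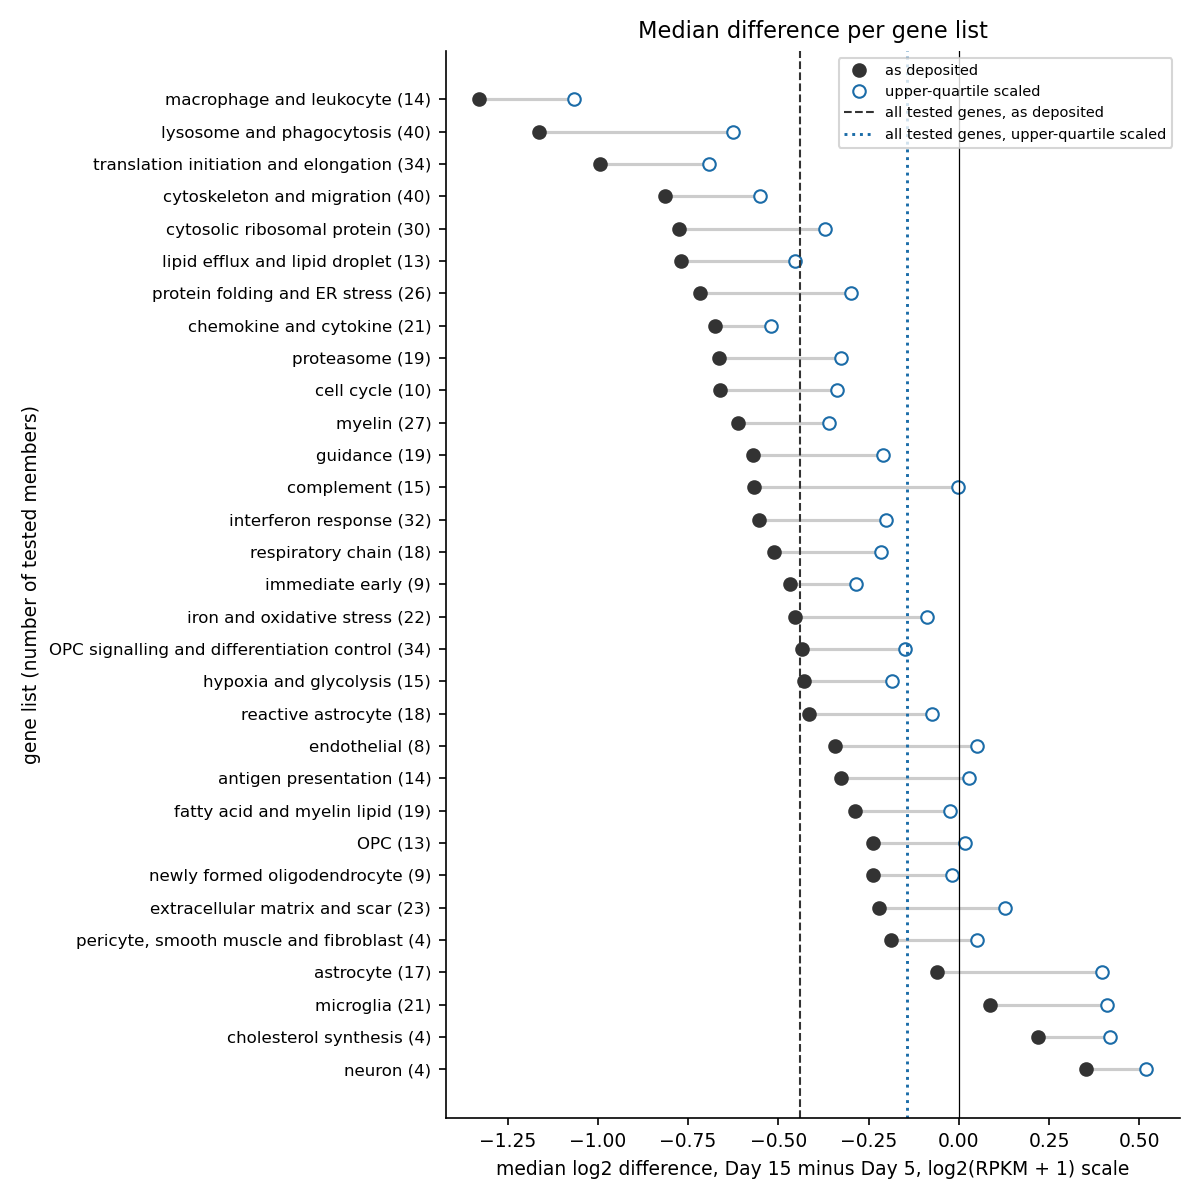
Median log2 difference, Day 15 minus Day 5, over the tested members of each gene list with at least 3 of them, as deposited (filled) and after upper-quartile scaling (open), with the number of tested members in brackets; vertical lines mark the medians of all tested genes, -0.44 and -0.14. Macrophage, lysosome and translation lists lie lowest on both scales, and microglia and astrocyte lists lie above the line of all genes.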

How the data were processed

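Per the labels' protocols, cDNA of the captured cells was amplified (Nugen Ovation) and sequenced as paired ends. CASAVA 1.8.3, STAR 2.1.4a, HTSeq and the mouse build mm9 are named in the submitters' processing notes. The authors deposited RPKM, as their table is named, 1 column per library. The reads and gene lengths behind them, and the strand setting, have no mention in those sources. Library depth is thus unknown, counting error could not be computed, and overlapping, antisense and paralogous genes are uncertain. Amplifying little RNA loses rare transcripts by chance, which sets genes near 0 in single libraries, and an abundant transcript can lower other values of its library under total-read scaling. In Day 5 replicate 10, 68% of the RPKM sum was Rn45s, the precursor of ribosomal RNA. Its RPKM sum without Rn45s was 39845, within the Day 5 range of 15070 to 69709 and near the Day 5 mean of 38806.

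Of 23351 genes, the 4319 that reached 1 RPKM in 7 or more of the 25 libraries were tested (25 symbols turned into dates by a spreadsheet were left unnamed). The 15 stroke libraries were fitted on log2(RPKM + 1) with limma 3.58.1 in R 4.3.3, two-sided, with an intensity trend and robust variances, and p-values were adjusted over all tested genes by Benjamini-Hochberg. Fits of upper-quartile scaled values stand beside it. Single values were compared with exact permutation tests in Python 3.11.15 (scipy 1.17.1). Since nothing says that libraries come from separate animals, p-values measure only their own spread, in part possibly technical. On simulated data for this comparison (4319 genes, 200 changed), limma recovered 6.8%, 48.8%, 89.2% and 99.2% of rises by log2 sizes of 1, 2, 3 and 4. For falls of these sizes the shares were 8%, 40.8%, 66% and 70%, and 5.47% of calls were false. The simulation drew each gene independently, without shifts shared by a whole library. Its rates may therefore not hold for the real libraries.

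The comparison, the 33 gene lists (1119 entries, 1104 in the table) and the tests were chosen with earlier results of these data known. The rule for named genes took the 10 smallest p per direction with a mean RPKM of at least 5, as deposited and after scaling, since none was called; a fixed panel (Lyz2, Spp1, Gpnmb, Aif1, C3, Kcnj2, Pdgfra, Cspg4, Olig2, Sox10, Mbp, Aqp4, Gfap, Cldn5, Snap25, Camk2n1); and the 3 smallest p of each list. Not all genes of the last set are described, and some genes under the rule are not reported here. Alternatives were a pseudocount of 0.1, other filters, quantile normalization, an equal sum without Rn45s, all 25 libraries, library weights, a replicate block, 2 covariates, subsets of libraries, leaving out each library and a rank-sum test.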

Additional observations from a re-analysis of the deposited data

Results flagged for a closer look

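In 28 of the 172 groups of values examined (a gene or library property at 1 day, on the log2(RPKM + 1) scale for genes), the highest or lowest library stood apart from the rest of its group by more than the 95% critical value of Dixon's test. Chance flags about 1 in 20 groups. Day 15 replicate 5 accounted for 12 of them, each time as the highest library of its day. It held 7.51 RPKM of Lgals3, 12.8 of Ms4a7, 14.4 of Msr1, 2.22 of Ly6c2, 153 of Spp1, 31.2 of Lipa, 5.04 of Il7r and 9.85 of Mmp12. It also held 6.52 RPKM of Pdgfra, 25.0 of Cspg4, 1.22 of Eif3i and 0.111 of Cldn5. Phagocyte genes and the 2 OPC markers Pdgfra and Cspg4 thus stood out in the same library. It had the most genes above 0 of its day (19131). Cspg4 is also on the pericyte list. The endothelial and pericyte signals of replicate 5 were the highest of Day 15 too, at 1.43 and 0.98, as was its OPC signal, at 1.63.

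Other Day 15 libraries stood apart for C3 in replicate 2 (84.4 RPKM), Srrm2 in replicate 3 (960 RPKM), Ivns1abp and Snap25 in replicate 6 (331 and 56.0 RPKM), Olig2 in replicate 7 (0.748 RPKM) and Kcnj2 in replicate 9 (74.3 RPKM). At Day 5, replicate 3 stood apart for Cx3cr1 (24.8 RPKM), Glul (785 RPKM) and Sdc3 (14.0 RPKM), and replicate 6 for Adamts4 (23.2 RPKM), Actr2 (239 RPKM) and as the lowest in genes above 0 (9210). Day 5 replicate 10 stood apart for Msr1 (39.5 RPKM) and for Rn45s, at 68% of its RPKM sum. Day 5 replicate 1 did so for Eif1a (99.8 RPKM) and Day 5 replicate 4 for Cldn5 (0.806 RPKM). What set these libraries apart was not tested.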

How the results depend on the processing

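All 48 alternatives for the number of called genes gave 0, with the lowest adjusted p between 0.105 (pseudocount 0.1) and 0.756 (replicate block on scaled values) over the limma fits. At an unadjusted p under 0.05, 512 genes were lower. With no filter 1167 were, out of all 23351 genes but the 741 at 0 in every library. With a mean RPKM of at least 5, 106 were. Such filters tested other numbers of genes, so their counts cannot be set against 512. Over the same 4319 genes, those lower numbered 359 to 721 when 1 library was left out and 177 with genes detected as a covariate. They numbered 279 in numbers 1 to 6 alone and 132 after quantile normalization. Those higher numbered 24, but 13 without Day 5 replicate 6, 15 without Day 15 replicate 3, Day 5 replicate 7 or Day 5 replicate 8, 16 without Day 5 replicate 10, and 37 without Day 15 replicate 8. After upper-quartile scaling they were 83, and 52 without Day 5 replicate 6. The median difference of all genes was -0.90 with a pseudocount of 0.1, -0.27 with equal sums without Rn45s and -0.06 with detected genes as a covariate. The 5 replicate numbers present at both days are not tied to a shared animal, and deviations of same-numbered libraries correlated between -0.018 and 0.047. With a replicate block 0 genes were called, and 33 were higher and 360 lower at an unadjusted p under 0.05.

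Of the named genes, 39 values changed sign. With library left-outs, Gfap ran from -0.59 to 0.58, Cspg4 from -0.47 to 0.31 and Mbp from -0.68 to 0.13. Upper-quartile scaling gave Gfap 0.52, Mbp 0.36 and Sox10 0.017. Quantile normalization gave Gfap 0.29, Mbp 0.20, Camk2n1 0.19 and Aif1 0.061, and equal sums without Rn45s Gfap 0.27 and Mbp 0.10. Detected genes as a covariate gave Gfap 0.87, Mbp 0.62, Sox10 0.27 and Camk2n1 0.21. Library weights gave Gfap 0.61, a pseudocount of 0.1 Cspg4 -0.29, and the replicate block Cspg4 -0.37 and Sox10 0.12. Numbers 7 to 10 alone gave Gfap 1.35, Csf1r -0.24, Sall1 -0.044 and Ctdsp2 -0.46, and numbers 1 to 6 alone Cspg4 -0.15. Without Day 5 replicate 4 and Day 15 replicates 5 and 6 together, Gfap was 0.47 and Cspg4 -0.43. Without the libraries with most genes at 0, an alternative chosen after seeing the data, Cx3cr1 was -0.11 and C1qb -0.21. The cause of these changes was not tested.

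The difference in genes at 1 RPKM or more ran from -1618 to -898 when 1 library was left out. That in genes above 0 ran from -4713 to -2622. The latter was -3974 in numbers 7 to 10 alone and -2804 in numbers 1 to 6 alone (exact permutation p = 0.0286 and 0.429). Depth is unknown, so values near 0 cannot be told from undetected transcripts, and most named genes with medians under 1 RPKM are of that kind.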
